A study of Mus musculus with 34 samples.

Results

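The response of MOSJ-Dkk-1 cells to nutritional stress was measured while the cells were treated with DkkMo. The comparison took in 6 of the 34 sequenced samples, 3 cultures under nutritional stress and 3 in the logarithmic phase of growth, chosen by their labels and not by any measured value. MOSJ-Dkk-1 is 1 line of mouse osteochondral sarcoma cells, labelled with red fluorescent protein, in which a lentiviral vector with the cytomegalovirus promoter drives secretion of human Dkk-1, an extracellular inhibitor of canonical Wnt signalling. DkkMo is a vivo morpholino, a synthetic antisense oligomer with a delivery group, directed against the 5' end of the Dkk-1 message. Both groups were seeded at 500 cells per cm2, received 5 µM DkkMo on the day after seeding (by the labels and the study's methods, while a figure legend of the study gives another dose) and had their medium changed every 2 days, so that they entered logarithmic growth at 6 days. The cultures under nutritional stress then passed 48 h at confluence, with no change of medium for 4 days. Confluence, the age of the medium and the age of the culture therefore came together, and their parts in a change cannot be told apart. Whether the groups had equal time under the morpholino, and whether it was renewed with the medium, is not clear from the sources used here. The part of these cannot be told apart either. The same contrast in cells treated with scrMo, a morpholino with mismatches, at 5 µM, or with no morpholino (NT), was set beside it, with 3 libraries in each of the 4 further groups. The labels do not say that the 3 libraries of a group were separate cultures, and p-values then measure only the spread between these libraries, which may be technical.

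Cells that crowd a dish and exhaust its medium leave the cell cycle, and glucose and amino acid supply, oxygen, cell contact and the load of misfolded protein all change together. Misfolded protein in the cytosol releases the transcription factor HSF1, which binds heat shock elements in front of chaperone genes, whereas misfolded protein in the endoplasmic reticulum (ER) is sensed by IRE1, PERK and ATF6. Genes of mitosis are held silent outside the cell cycle through a promoter element called the CHR, and genes induced by interferon are switched on through the interferon-stimulated response element (ISRE), to which IRF factors bind.

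Between 29.8 M and 32.7 M reads per library fell on the listed genes in log phase and between 27.5 M and 31.4 M under stress (exact permutation test, two-sided, p = 0.5). Reads on genes of the mitochondrial genome made up 2.45 to 2.68% of these in log phase and 1.74 to 1.88% under stress, without overlap (exact permutation p = 0.1, the smallest that 3 against 3 can give). The 10 genes with the most reads took 5.07 to 5.33% in log phase and 6.09 to 6.13% under stress, also without overlap (exact permutation p = 0.1). Few defining markers of other cell types had a value, and of these 2 endothelial markers, taken up below, were DE. Of 12 leukocyte markers 5 had a value, with a summed level of 856 to 1079 normalized counts in log phase and 899.7 to 985 under stress, and none was DE. Of 8 muscle markers 3 had a value (summed level 1285 to 1317 in log phase, 1155 to 1214 under stress), of 8 adipocyte markers 2 (677 to 843 and 911 to 974) and of 10 epithelial markers 1 (1.11 to 5.96 and 13.3 to 17.2). None of these 6 was DE. Each had no overlap between the groups, as had 66.8% of all genes tested. With limma voom on the recovered reads 2 muscle, 2 adipocyte and 1 epithelial marker were called. Their part in the results was not tested. Of the 13 markers of the osteochondral line 10 had a value. Sp7, Ibsp and Acan, which mark osteoblasts and cartilage, had none. Mouse Dkk1 was not analysed here, and the human Dkk-1 of the vector is not part of a mouse annotation, so these values hold no check of the blockade itself.

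Nutritional stress changed 2726 of the 16562 genes tested under DkkMo, 16.5% of them, with 1034 higher (6.24%) and 1692 lower (10.2%). A differentially expressed (DE) gene had to pass 2 limits, 0.05 on the adjusted p and 1.5-fold on the deposited scale, which is a variance-stabilised log2 scale. That scale compresses the changes of genes with few reads, so folds of normalized counts are given beside it, and a gene without reads has the value 7.2. Differences are stress minus log phase in log2 units, with their standard errors (SE). The adjusted p alone was passed by 10861 genes (65.6%), and in 11063 (66.8%) the 3 libraries of one group lay wholly above those of the other. The median absolute difference over all genes was 0.23. The split of the calls depended on the scaling. With each library centred on its own median the median gene moved from -0.01 to 0.15, and 63.6% of the DE genes were higher in place of 37.9%, and with quantile normalization 49.2% were. The median turned its sign with this centring in the lists of growth arrest, fatty acid synthesis, aldehyde dehydrogenases, p53 targets, ribosome biogenesis, TGF-beta and BMP, stem-like markers and osteochondral markers, all of them near 0. It also turned, again near 0, in the lists of the osteoblast lineage and of immediate early genes. In bulk RNA, fewer cells of a kind and less RNA per cell cannot be told apart.

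**Figure D1:**
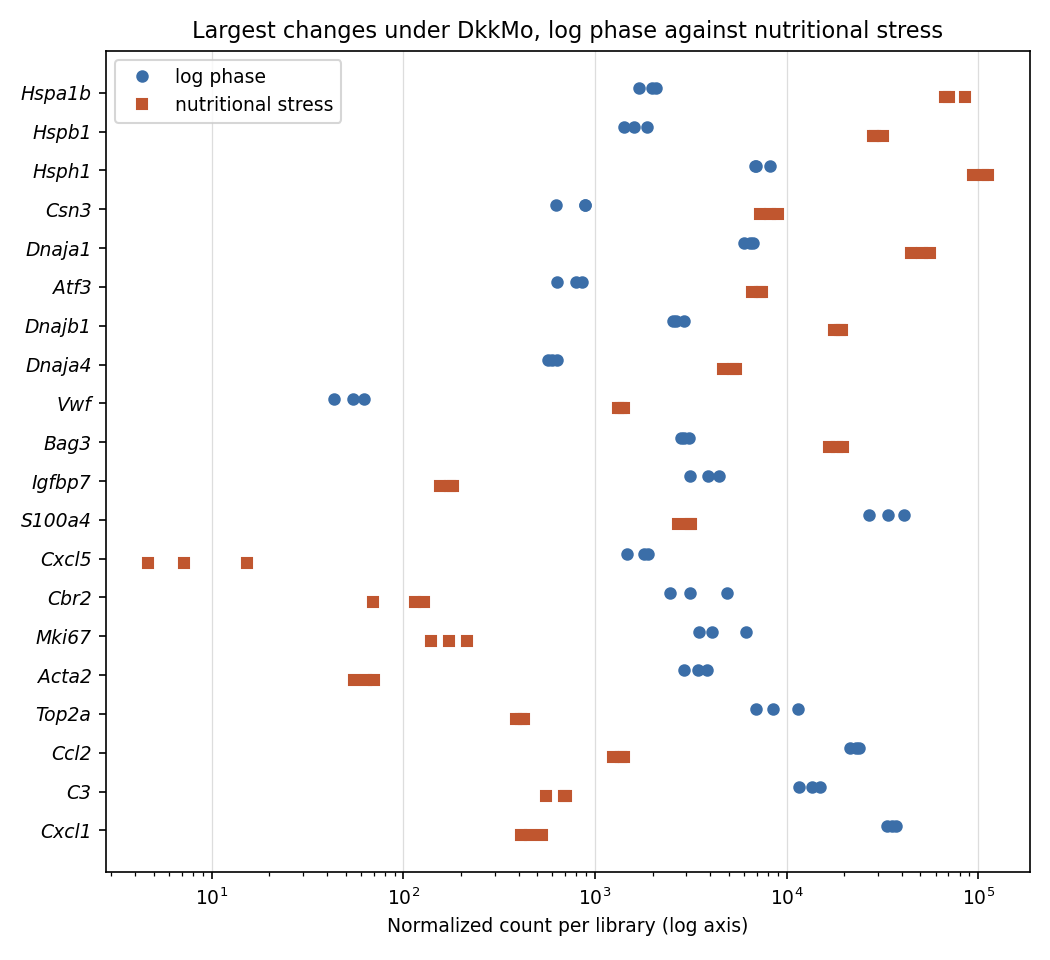
Normalized counts (log axis) of the 20 genes with the largest changes on the log2 scale among named genes without overlap, in each of the 3 log phase (circles) and 3 nutritional stress (squares) libraries under DkkMo. Chaperone genes such as Hspa1b sit to the right under stress, and chemokine and mitotic genes such as Cxcl1 and Top2a to the left. Genes were chosen for groups that do not overlap.

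Cytosolic heat shock genes had the highest median of the 31 process lists. Of 19 measured genes of this list 17 rose, none fell and 2 were not called, with a median of 1.62 against -0.01 over all genes. Hspa1b, an inducible HSP70 chaperone at chr17:34956436-34959238 (GRCm38), had 1984, 1706 and 2077 normalized counts in the 3 log phase libraries and 70226, 66800.2 and 85218 under stress. It was 38.5-fold higher, a log2 difference of 5.07 ± 0.24, adjusted p = 1.6e-12. Its neighbour Hspa1a, with a nearly identical sequence, was not analysed here, so how reads were shared between them is uncertain. Hspb1, the small heat shock protein HSP27, had 1607, 1421 and 1872 counts in log phase and 28935, 28269.5 and 31845 under stress, 18.2-fold higher (3.97 ± 0.16, adjusted p = 3.4e-13). Hsph1, an HSP110 that exchanges the nucleotide of HSP70, went from 6848, 6900.4 and 8194 to 94499, 112262 and 106054 counts, 14.3-fold higher (3.78 ± 0.14, adjusted p = 1.0e-13). The J-domain partners of HSP70 moved with it. Dnaja1 rose 7.91-fold (2.92 ± 0.11, adjusted p = 9.1e-14), Dnajb1 6.93-fold (2.67 ± 0.11, adjusted p = 4.6e-13) and Dnaja4 8.54-fold (2.64 ± 0.10, adjusted p = 2.1e-13). Bag3, which links HSP70 to autophagy, rose 6.14-fold from 2932, 3115 and 2829 to 16562, 18316 and 19638 counts (2.51 ± 0.10, adjusted p = 3.2e-13). The constitutive member Hspa4 (0.08 ± 0.05) and Hsf1 (-0.07 ± 0.05), which encodes the factor that binds heat shock elements, were not called. The activity of HSF1 was not measured. Together the list held 0.856 to 0.919% of all normalized counts in log phase and 2.94 to 3.21% under stress.

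The promoters of these genes are shown because most of the list rose. RefSeq windows (GRCm38.p6) of 250 bases before to 50 after the start were found for 14 of its genes, and each was searched on both strands for 3 alternating units of the heat shock element, TTC, GAA and TTC, each 2 bases of any kind apart. It stood in 4 of the 14 genes (28.6%), Hspd1, Hspe1, Hsph1 and Chordc1, and in 0.589% of the 10521 tested genes with a window. The matches of Hspd1 and Hspe1 are the same bases read on opposite strands, so they are not independent. Both genes encode mitochondrial chaperonins, although the list is named for the cytosol. The shorter 2-unit forms TTCNNGAA or GAANNTTC, which the longer motif contains, stood in 10 of the 14 (71.4%) and in 14.0% of the tested genes. A match is a description of letters and no evidence of binding. The 250 bases before the start of Hspe1, which encodes the mitochondrial chaperonin HSP10, are printed with the motif in capitals. They lie at chr1:55087898-55088147, plus strand, and the 2 overlapping matches begin 89 and 84 bases before the start.

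Hspe1: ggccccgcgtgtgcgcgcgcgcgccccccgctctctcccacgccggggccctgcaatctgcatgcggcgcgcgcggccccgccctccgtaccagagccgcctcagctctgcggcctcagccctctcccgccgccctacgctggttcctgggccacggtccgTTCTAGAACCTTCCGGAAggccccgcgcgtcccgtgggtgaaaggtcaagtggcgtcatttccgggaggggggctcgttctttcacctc

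Most of this stretch, read on the other strand, also lies before the RefSeq start of Hspd1, which encodes the partner HSP60. The 250 bases before that start are chr1:55087933-55088182, minus strand. The wider gene span of Hspd1 in the GENCODE annotation (chr1:55077835-55088243) covers the whole stretch. Hspd1 had 22718, 20950.4 and 23444 counts in log phase and 61959.9, 72233 and 68029.5 under stress, 3.01-fold higher (1.58 ± 0.09, adjusted p = 2.3e-11), and Hspe1 rose 3.13-fold (1.62 ± 0.10, adjusted p = 7.1e-11). The 2 genes at this shared promoter rose by nearly equal amounts, each without overlap between the groups, as in 66.8% of all genes tested.

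Chaperones of the ER rose by less. Of 21 measured genes 13 rose and none fell, with a median of 0.64. Dnajb9, a J-domain cofactor of BiP that restrains IRE1, had 1995, 1727 and 2173 counts in log phase and 8090.1, 8867 and 9107 under stress, 4.42-fold higher (2.00 ± 0.13, adjusted p = 9.8e-11). Hyou1, the ER member of the HSP110 family, rose 2.20-fold (1.12 ± 0.14, adjusted p = 6.9e-07), Sdf2l1, an ER cochaperone, 2.37-fold (1.12 ± 0.19, adjusted p = 4.8e-05) and Edem1, which marks misfolded glycoproteins for degradation, 1.9-fold (0.89 ± 0.09, adjusted p = 1.1e-07). BiP itself (Hspa5, 0.40 ± 0.16), Xbp1 (0.48 ± 0.07) and Atf6 (0.23 ± 0.10) were higher in their means and not called. CCAAT, the letters of the CCAAT box and part of the ER stress element, stood in 16 of 18 ER chaperone genes with a window (88.9%). It stood in 43.2% of the tested genes. The share was also high in mitosis (83.3%), MHC class I (68.8%) and replication genes (56.0%). It was 42.9% in heat shock genes and 38.7% in interferon-stimulated genes.

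**Figure D2:**
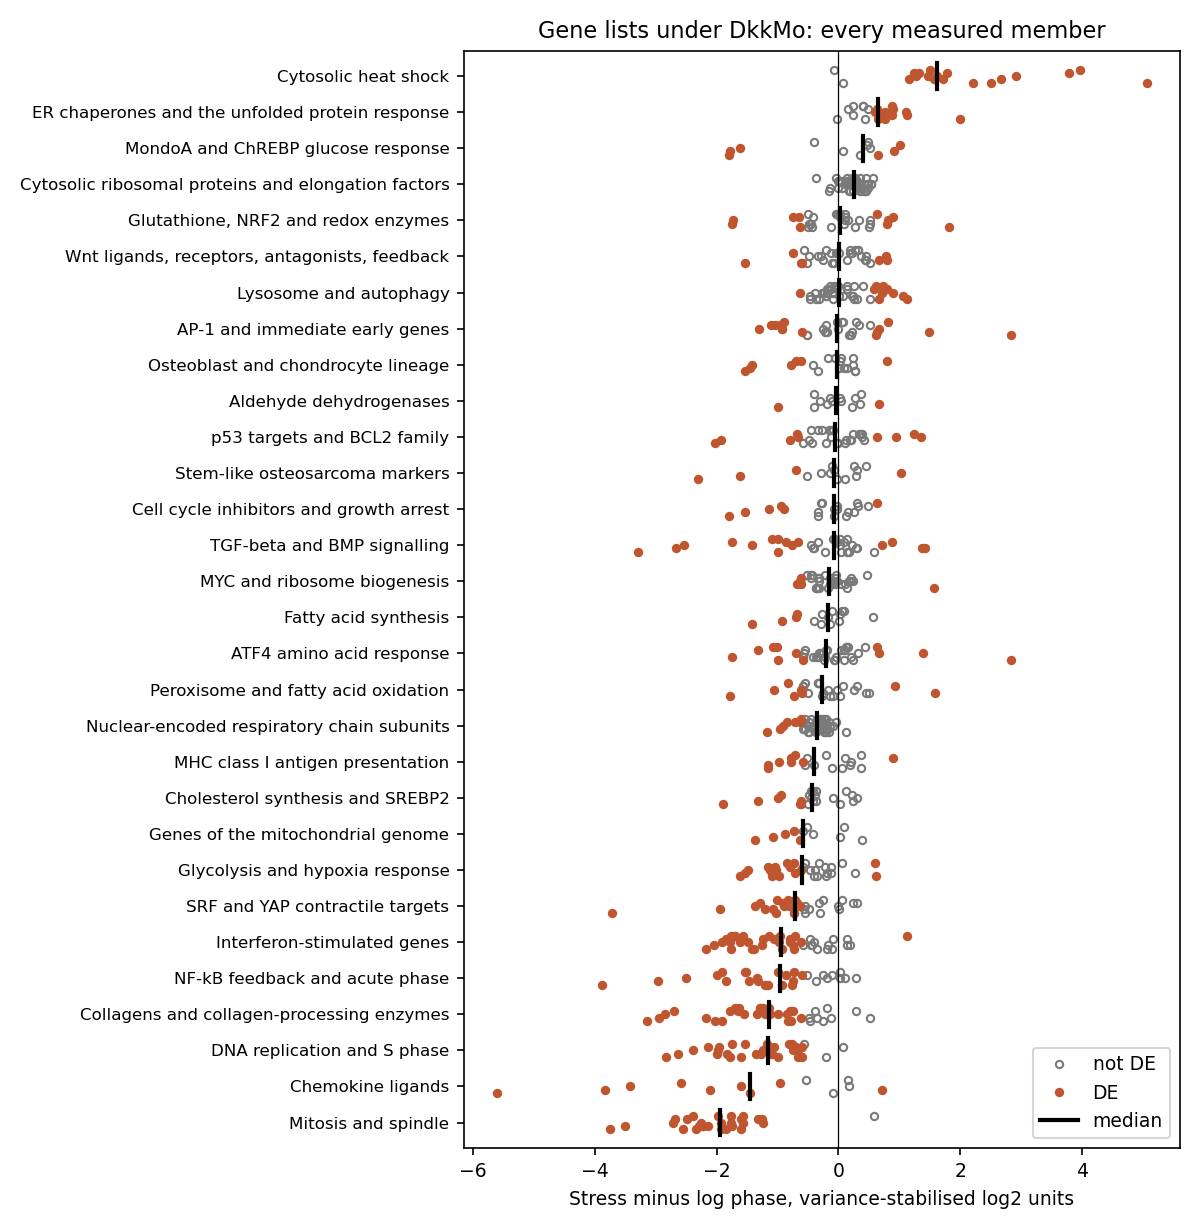
Difference between nutritional stress and log phase under DkkMo (log2 units, horizontal) for every measured member of each gene list (rows, ordered by their median), with DE genes filled, other genes open and the list median as a bar. Cytosolic heat shock lies to the right with a median of 1.62, and mitosis and spindle genes to the left with a median of -1.95.

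Most genes of the dividing cell fell. Of 28 measured genes of mitosis and the spindle 27 fell and none rose, with a median of -1.95, and of 32 genes of DNA replication and S phase 29 fell and none rose, with a median of -1.16. Top2a, the topoisomerase that untangles replicated chromosomes (chr11:98992943-99024189), had 6920.4, 11411 and 8525 counts in log phase and 389.6, 414 and 428 under stress, 21.8-fold lower (-3.75 ± 0.13, adjusted p = 4.9e-14). Mki67, the proliferation marker Ki-67, went from 3496, 6129 and 4074 to 140.0, 174 and 215 counts, 25.9-fold lower (-3.51 ± 0.14, adjusted p = 2.5e-13). In both genes log phase replicate 2 was the highest library and stood well above the other two, while the stress libraries lay close together. Ube2c, an E2 enzyme of the anaphase-promoting complex, fell 16.1-fold (-2.72 ± 0.11, adjusted p = 2.6e-13) and Anln, a scaffold of the cleavage furrow, 10.5-fold (-2.69 ± 0.13, adjusted p = 2.3e-12). Among replication genes the helicase subunits Mcm3 (2797, 3234 and 2885 counts in log phase, 229, 191 and 215 under stress) and Mcm5 (1624, 1968 and 1635 and 82.2, 111 and 97.8) fell the most, by 14.0-fold and 17.9-fold. Uhrf1, which carries DNA methylation through replication, fell 8.35-fold (-2.39 ± 0.09, adjusted p = 1.5e-13) and Rrm2, a subunit of ribonucleotide reductase, 8.04-fold (-2.15 ± 0.11, adjusted p = 4.5e-12). The only mitosis gene not called was the securin Pttg1, at 0.58 ± 0.06, which was DE and higher with library-median centring, and among replication genes Ccne1, Ccne2 and Gins2 were not called. The mitosis list summed to 0.125 to 0.193% of all normalized counts in log phase and 0.0216 to 0.0226% under stress.

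Promoter windows are shown for this list because nearly all of it fell together. The CHR, TTTGAA, was searched on both strands with the CCAAT box, CCAAT, and both stood in the windows of 17 of 24 mitosis genes (70.8%) and of 6.09% of the tested genes. Of all 27025 genes with a window, tested or not, 7.97% held both. The 250 bases before the start of Top2a (chr11:99024190-99024439, minus strand) and of Mki67 (chr7:135716380-135716629, minus strand) are printed with both motifs in capitals, on either strand. Top2a has 2 matches to the CHR, the nearer of which begins 23 bases before the start, and 6 to the CCAAT box. Mki67 has 2 and 3.

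Top2a: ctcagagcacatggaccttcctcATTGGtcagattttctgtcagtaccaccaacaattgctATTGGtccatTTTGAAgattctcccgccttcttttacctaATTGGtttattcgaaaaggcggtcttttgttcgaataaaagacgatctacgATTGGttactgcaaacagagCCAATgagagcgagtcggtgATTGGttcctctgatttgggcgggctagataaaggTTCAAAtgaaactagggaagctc

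Mki67: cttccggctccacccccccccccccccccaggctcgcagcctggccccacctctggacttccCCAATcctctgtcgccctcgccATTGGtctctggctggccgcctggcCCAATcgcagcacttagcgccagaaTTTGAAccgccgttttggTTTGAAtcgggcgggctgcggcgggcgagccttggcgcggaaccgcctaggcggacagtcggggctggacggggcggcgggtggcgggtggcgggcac

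Of 20 measured genes of cell cycle inhibition and growth arrest, a list that also holds D-type cyclins and Pdgfra, 1 rose and 5 fell. The share called was 30.0%, against 16.5% of all genes. Ccnd1, cyclin D1 of the G1 phase and a Wnt target, fell 2.95-fold from 29558, 27734 and 29387 to 9819, 9809 and 9732 counts (-1.53 ± 0.06, adjusted p = 1.0e-13). Gas1, a growth arrest gene, fell 6.66-fold (-1.79 ± 0.17, adjusted p = 2.3e-08), the inhibitor Cdkn2c 3.42-fold (-1.14 ± 0.12, adjusted p = 6.2e-08) and Pdgfra, a receptor for platelet-derived growth factor, 2.02-fold (-0.94 ± 0.08, adjusted p = 1.0e-08). The inhibitors p21 (Cdkn1a, -0.28 ± 0.08) and p27 (Cdkn1b, 0.12 ± 0.11) were not called.

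Chemokines and inflammatory genes held the gene with the largest fall. Among 13 measured chemokine ligands 8 fell and 1 rose, with a median of -1.46, and among 30 genes of NF-kB feedback and the acute phase 21 fell and none rose, with a median of -0.96. Cxcl1 (chr5:90891241-90893115), which draws neutrophils, had the largest log2 difference of the named genes. Its counts were 37441, 33269 and 35702 in log phase and 461, 532 and 409.8 under stress, 75.9-fold lower (-5.61 ± 0.16, adjusted p = 6.5e-15). Cxcl5, which acts on the same receptor, went from 1468, 1893 and 1795 to 15.2, 7.15 and 4.66 counts, 191-fold lower on counts that were under 20 in each stress library (-3.42 ± 0.13, adjusted p = 2.4e-13). The monocyte attractants Ccl2 and Ccl7 fell 16.9-fold (-3.83 ± 0.13, adjusted p = 4.9e-14) and 6.82-fold (-2.58 ± 0.12, adjusted p = 9.3e-13). Complement C3 had 11611, 14953 and 13561 counts in log phase and 686, 711 and 558 under stress, 20.5-fold lower (-3.89 ± 0.20, adjusted p = 4.5e-12). Saa3, an acute phase apolipoprotein, fell 29.5-fold (-2.96 ± 0.23, adjusted p = 1.8e-09), the costimulatory receptor Tnfrsf9 6.87-fold (-2.51 ± 0.15, adjusted p = 4.4e-11) and Nfkbia, the inhibitor that NF-kB itself induces, 4.58-fold (-1.99 ± 0.13, adjusted p = 2.0e-10). The subunit Rela (0.11 ± 0.07) and the cytokine Il6 (0.28 ± 0.06) were not called, so part of the list did not fall.

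Interferon-stimulated genes fell in most cases. Of 42 measured 28 fell and 1 rose, with a median of -0.95. Irf7, which amplifies the response, had 1762, 1905 and 1865 counts in log phase and 255, 238 and 304 under stress, 6.95-fold lower (-2.04 ± 0.08, adjusted p = 1.5e-13). Irf1 fell 4.43-fold (-1.91 ± 0.19, adjusted p = 5.5e-08) and the GTPase Gbp2 8.74-fold (-1.85 ± 0.11, adjusted p = 4.1e-11). Rsad2, the antiviral enzyme viperin, went the other way, from 482, 428 and 709 to 1261, 1615 and 1531 counts (2.72-fold higher, 1.13 ± 0.11, adjusted p = 3.2e-08). The ISRE, searched on both strands as GAAA and GAAA with 2 bases of any kind between, stood in the windows of 16 of 31 of these genes (51.6%) and in 3.55% of the tested genes. The bases before the starts of Gbp2 (chr3:142620413-142620662, plus strand), with 1 match, and of the ubiquitin-like modifier Isg15 (chr4:156200819-156201068, minus strand), with 3 overlapping matches, are given with the ISRE in capitals. Isg15 had 2976, 2669.6 and 2564 counts in log phase and 683, 555 and 624 under stress, 4.41-fold lower (-1.76 ± 0.08, adjusted p = 6.4e-13).

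Gbp2: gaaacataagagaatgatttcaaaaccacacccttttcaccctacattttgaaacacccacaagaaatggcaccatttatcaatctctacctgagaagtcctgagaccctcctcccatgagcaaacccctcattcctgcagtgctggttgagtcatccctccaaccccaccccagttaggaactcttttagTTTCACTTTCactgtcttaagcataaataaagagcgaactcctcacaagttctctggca

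Isg15: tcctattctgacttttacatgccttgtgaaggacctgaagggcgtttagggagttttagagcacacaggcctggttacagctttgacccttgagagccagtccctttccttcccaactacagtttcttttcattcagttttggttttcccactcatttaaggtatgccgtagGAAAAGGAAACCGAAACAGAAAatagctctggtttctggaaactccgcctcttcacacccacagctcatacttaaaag

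Antigen presentation by MHC class I changed in parts. Of 19 measured genes 7 fell and 1 rose. Tapbp, the tapasin that loads peptide, fell 2.42-fold (-1.16 ± 0.10, adjusted p = 8.4e-09), and the proteasome activators Psme1 and Psme2 fell 2.28-fold and 2.77-fold. Nlrc5, the transactivator of MHC class I genes, rose 2.12-fold from 641, 782 and 938 to 1614, 1669 and 1723 counts (0.89 ± 0.08, adjusted p = 9.4e-09). The heavy chains H2-K1 (0.21 ± 0.09) and H2-D1 (0.10 ± 0.07) and B2m (-0.20 ± 0.07) were not called.

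**Figure D3:**
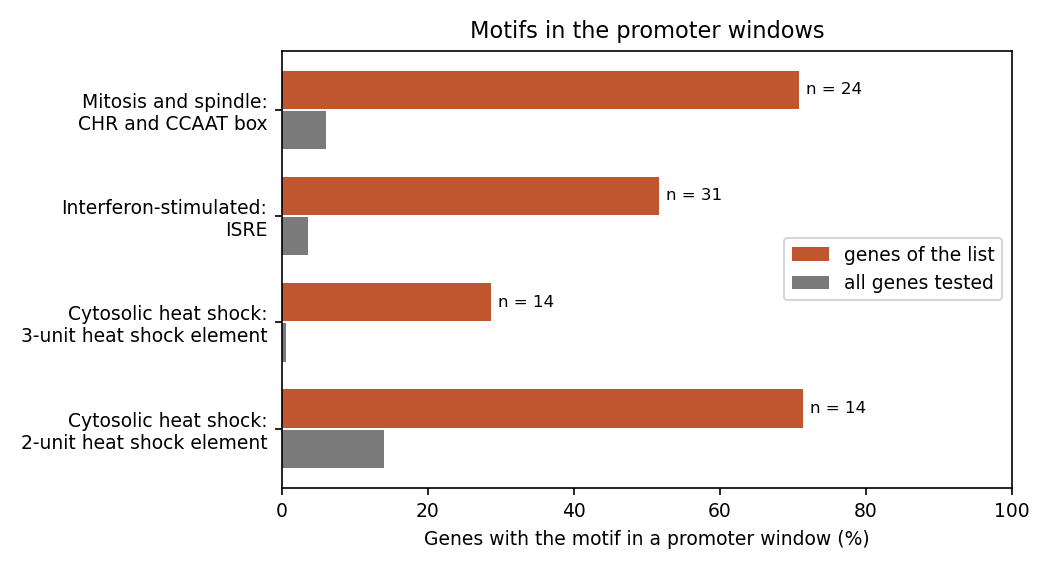
Percentage of genes with a motif in a RefSeq promoter window (250 bases before to 50 after the start), for the genes of a list (upper bars, with their number) and for all 10521 tested genes with a window (lower bars). CHR and CCAAT box together stood in 70.8% of the mitosis genes and 6.09% of the tested genes.

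Matrix genes fell together. Of 35 measured collagens and collagen-processing enzymes 26 fell and none rose, with a median of -1.14. Col1a1, the main chain of bone collagen (chr11:94936224-94953042), had 18500.3, 32561 and 15444 counts in log phase and 2074, 2129 and 2215 under stress, 10.4-fold lower (-3.14 ± 0.20, adjusted p = 8.5e-11). Its partner Col1a2 fell 7.79-fold (-2.85 ± 0.13, adjusted p = 1.0e-12), Col3a1 10.6-fold (-2.69 ± 0.17, adjusted p = 6.1e-11) and Pcolce, which promotes the trimming of procollagen, 9.10-fold (-2.94 ± 0.16, adjusted p = 7.4e-12). Log phase replicate 2 was again the highest library for all 4, and the stress libraries were below all log phase libraries. Serpinh1 (0.52 ± 0.09), the collagen chaperone HSP47 and itself a heat shock gene, was not called. Bone genes moved both ways. Of the 20 measured genes of the osteoblast and chondrocyte lineage 6 fell and 1 rose. Spp1, osteopontin, went from 133759, 133239 and 135488 to 50408, 50824 and 49248 counts (2.67-fold lower, -1.41 ± 0.09, adjusted p = 8.9e-11), Ifitm5, a membrane protein of mineralising osteoblasts, fell 2.80-fold (-1.45 ± 0.08, adjusted p = 1.5e-11), the marker Sparc, osteonectin, 3.40-fold (-1.69 ± 0.10, adjusted p = 4.8e-11) and Tnfrsf11b, osteoprotegerin, 7.09-fold (-1.54 ± 0.11, adjusted p = 6.1e-10). Runx2, the master factor of osteoblasts, rose 1.83-fold from 1736, 2194 and 2298 to 3561, 3863 and 4002 counts (0.80 ± 0.07, adjusted p = 1.6e-08). Alpl (-0.06 ± 0.05), Bglap (0.27 ± 0.06) and Sox9 (0.24 ± 0.09) were not called.

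Contractile and cytoskeletal genes also fell. Of 29 measured targets of SRF and YAP 17 fell and none rose, with a median of -0.72. Acta2, smooth muscle actin, had 3465, 3849 and 2934 counts in log phase and 70.0, 55.1 and 64.0 under stress, 54.2-fold lower (-3.72 ± 0.15, adjusted p = 3.6e-13). Thbs1, thrombospondin-1, fell 4.14-fold from 19452, 39390.1 and 24941 to 7012, 6593 and 6640.1 counts (-1.94 ± 0.16, adjusted p = 2.9e-09), with log phase replicate 2 highest. Cnn2, a calponin, fell 2.70-fold (-1.37 ± 0.10, adjusted p = 4.3e-10) and the receptor kinase Axl 2.48-fold (-1.29 ± 0.06, adjusted p = 2.3e-12). Srf itself (0.01 ± 0.06) was not called. Among other genes with the largest falls were S100a4, a calcium-binding protein linked to motility, which fell 11.2-fold from 33932, 40980.1 and 26934 to 3191, 3147 and 2718 counts (-3.36 ± 0.15, adjusted p = 1.1e-12), Igfbp7, a secreted binding protein of insulin-like growth factors (22.5-fold lower, -3.31 ± 0.16, adjusted p = 1.6e-12), and Cbr2, a carbonyl reductase (33.4-fold lower, -3.46 ± 0.20, adjusted p = 2.2e-11).

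TGF-beta and BMP genes went both ways, 11 of 34 falling and 4 rising. Ltbp2, a matrix protein of the latent TGF-beta binding family, had 6516, 12005 and 7543 counts in log phase and 614, 606 and 649 under stress, 14.0-fold lower (-3.28 ± 0.18, adjusted p = 9.6e-12). The BMP antagonist Grem1 fell 8.25-fold (-2.67 ± 0.15, adjusted p = 2.2e-11), and Tgfbi, a matrix protein that TGF-beta induces, 8.30-fold (-2.53 ± 0.12, adjusted p = 1.2e-12). In the Wnt pathway, which Dkk-1 inhibits, 31 of 52 listed ligands, receptors, antagonists and feedback genes had a value. Of these 3 rose, 4 fell and 24 were not called, with a median of 0.01, and with library-median centring 7 rose and 1 fell. On the deposited scaling 22.6% were called, not far above the 16.5% of all genes. Lrp6, the coreceptor to which Dkk-1 binds, rose 1.79-fold from 2284, 2814 and 2842 to 4392, 5106 and 4696 counts (0.78 ± 0.08, adjusted p = 7.3e-08) and the receptor Fzd5 2.37-fold (0.80 ± 0.07, adjusted p = 1.5e-08). The largest fall in the list was that of the target Ccnd1, given above (-1.53, and -1.37 with library-median centring). The ligand Wnt10b fell 1.74-fold (-0.74 ± 0.06, adjusted p = 9.7e-10), a call that was lost with library-median centring. The feedback genes Axin2 (0.22 ± 0.07) and Lef1 (0.31 ± 0.05) and the effector Ctnnb1 (0.45 ± 0.06) were not called.

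Many glycolytic genes fell. Of 32 measured genes of glycolysis and the hypoxia response 16 fell and 2 rose, with a median of -0.60. Eno1, enolase, had 44151, 39233 and 36851 counts in log phase and 15031, 12617 and 13216 under stress, 2.94-fold lower (-1.54 ± 0.13, adjusted p = 4.9e-09). Ero1l, the oxidase of ER disulfide formation and a hypoxia target, fell 3.18-fold (-1.61 ± 0.24, adjusted p = 9.0e-06), Pdk1, which closes off pyruvate dehydrogenase, 3.49-fold (-1.49 ± 0.19, adjusted p = 1.3e-06) and Pgam1, phosphoglycerate mutase, 2.29-fold (-1.16 ± 0.12, adjusted p = 5.9e-08). The glucose transporter Slc2a1 (-0.40 ± 0.16) was not called. Genes that MondoA and ChREBP raise in response to glucose split evenly, 3 higher and 3 lower of 12, or 6 and 3 with library-median centring. Txnip, which blocks glucose uptake, went from 2733, 3086 and 2148 to 536, 555 and 647 counts (4.59-fold lower, -1.79 ± 0.28, adjusted p = 1.5e-05). G6pdx, the entry to the pentose phosphate pathway, fell 4.02-fold from 5214, 5170.3 and 4448 to 1229, 1243 and 1214 counts (-1.79 ± 0.07, adjusted p = 1.2e-13), and Klf10 3.66-fold (-1.61 ± 0.14, adjusted p = 5.8e-09). Pdk4, which spares glucose in fasting, rose 2.32-fold (1.00 ± 0.08, adjusted p = 3.8e-09).

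Some lipid genes fell. Of 22 measured genes of cholesterol synthesis 7 fell and none rose, with a median of -0.44. With library-median centring or quantile normalization 4 fell, and with limma voom on the recovered reads 12 fell and 1 rose. Cyp51, a sterol demethylase, had 1151, 1847 and 1123 counts in log phase and 616, 552 and 564 under stress, 2.38-fold lower (-0.94 ± 0.10, adjusted p = 1.7e-07), and the regulator Srebf2 fell 2.08-fold (-0.98 ± 0.08, adjusted p = 2.7e-09). In fatty acid synthesis 4 of 15 fell and none rose, led by the elongase Elovl6 (4.16-fold lower, -1.42 ± 0.09, adjusted p = 8.4e-11) and the desaturase Fads2 (2.65-fold, -0.93 ± 0.09, adjusted p = 1.5e-08). Elovl1 (-0.70) and Srebf1 (-0.68) were DE on the deposited scaling and not with library-median centring, and Fasn stood at 0.00 ± 0.08. Of 27 genes of the peroxisome and fatty acid oxidation 6 fell and 2 rose, or 3 and 4 with library-median centring. On the deposited scaling 31.8% of the cholesterol, 26.7% of the synthesis and 29.6% of the oxidation genes were called, against 16.5% of all genes. Ppargc1a, the coactivator PGC-1alpha, rose 9.02-fold from 49.9, 68.5 and 73.2 to 539.7, 583 and 607 counts (1.59 ± 0.06, adjusted p = 1.3e-13), and its partner Ppara 15.4-fold on few reads, from 5.54, 5.96 and 11.2 to 114, 110.3 and 126 (0.92 ± 0.07, adjusted p = 3.7e-10). Angptl4, a PPAR target that inhibits lipoprotein lipase, fell 6.36-fold (-1.78 ± 0.09, adjusted p = 7.7e-12) and Hadha, of the mitochondrial trifunctional protein, 2.32-fold (-1.06 ± 0.07, adjusted p = 7.5e-11).

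Stress-induced factors and their targets moved both ways. Atf3, induced by many stresses, had 794, 635 and 859 counts in log phase and 6572, 7234 and 7422 under stress, 9.28-fold higher (2.84 ± 0.16, adjusted p = 2.1e-11). The ATF4 amino acid response to which it belongs did not move as one, with 4 of 38 genes rising and 7 falling. The share called was 28.9%, against 16.5% of all genes. Slc7a11, the cystine importer, rose 2.73-fold from 3555, 2969 and 3970.5 to 9223, 9861 and 9575 counts (1.39 ± 0.11, adjusted p = 1.1e-09). Pck2, mitochondrial phosphoenolpyruvate carboxykinase, fell 3.87-fold (-1.75 ± 0.09, adjusted p = 8.6e-12) and the glutamine carrier Slc1a5 2.71-fold (-1.32 ± 0.07, adjusted p = 1.7e-11). Asns (-0.20 ± 0.09), Trib3 (-0.29 ± 0.12) and Ddit3 (-0.07 ± 0.13), usual markers of amino acid shortage, were not called. Of 30 AP-1 and immediate early genes 6 rose and 8 fell. Dusp4, a phosphatase of MAP kinases, rose 2.89-fold (1.49 ± 0.08, adjusted p = 5.1e-12). Egr1, an early growth response factor, fell 2.52-fold from 14899.9, 13797 and 14059 to 6023, 4815 and 6142 counts (-1.30 ± 0.10, adjusted p = 1.0e-09) and Ier2 2.38-fold (-1.11 ± 0.11, adjusted p = 5.6e-08).

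Redox genes also split. Of 31 genes of glutathione, NRF2 and redox enzymes 5 rose and 5 fell, or 8 and 2 with library-median centring. On the deposited scaling 32.3% were called, against 16.5% of all genes. Hmox1, heme oxygenase-1, had 23365, 19707 and 20317 counts in log phase and 68973, 76851 and 79131 under stress, 3.55-fold higher (1.81 ± 0.16, adjusted p = 1.0e-08), and Txnrd1, thioredoxin reductase, rose 1.88-fold (0.90 ± 0.08, adjusted p = 1.3e-08). Another NRF2 target, the quinone reductase Nqo1, fell 3.81-fold from 6024, 7013 and 4963 to 1575, 1639 and 1505 counts (-1.75 ± 0.10, adjusted p = 1.5e-11) and the peroxidase Gpx1 3.87-fold (-1.73 ± 0.11, adjusted p = 1.6e-10). Of 14 measured aldehyde dehydrogenases 1 rose and 1 fell, or 14.3% called against 16.5% of all genes. Aldh3a1, which clears lipid aldehydes, rose 1.60-fold (0.66 ± 0.10, adjusted p = 8.5e-06) and Aldh18a1, of proline synthesis, fell 2.06-fold (-0.99 ± 0.08, adjusted p = 2.5e-09). Aldh1a1, a retinal dehydrogenase that the study names, had few reads in these cells. It had 11.1, 6.95 and 8.14 counts in log phase and 4.06, 6.13 and 2.33 under stress, with no overlap, at a log2 difference of -0.11 ± 0.06, adjusted p = 0.098, not DE. With log2 taken after adding 1 to each normalized count it was -0.96 (adjusted p = 0.015, limma), and with library-median centring its sign turned, to 0.05.

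Of 41 genes of the lysosome and autophagy 10 rose and 1 fell. The GTPase Rragd, which relays lysosomal nutrient state to mTORC1, rose 3.26-fold from 213, 248 and 286 to 756, 834 and 845 counts (1.12 ± 0.07, adjusted p = 4.2e-11), the sialidase Neu1 2.04-fold and Fnip1, of the folliculin complex, 1.76-fold. Sqstm1 (-0.13 ± 0.09) and Tfeb (-0.20 ± 0.07) were not called. Of 32 p53 targets and BCL2 family genes 4 rose and 5 fell. The shares called were 26.8% of the lysosome list and 28.1% of this list, against 16.5% of all genes. The killer protein Bcl2l11 (BIM) rose 3.04-fold from 747, 807 and 939 to 2254, 2705 and 2624 counts (1.35 ± 0.08, adjusted p = 5.6e-11) and Trp53inp1 2.48-fold (1.25 ± 0.12, adjusted p = 2.2e-08), whereas the death receptor Fas fell 7.08-fold (-1.93 ± 0.15, adjusted p = 2.2e-09) and Gtse1, a mitotic regulator of p53, 8.01-fold (-2.03 ± 0.05, adjusted p = 4.6e-15). Bax (0.25 ± 0.11), Mdm2 (0.38 ± 0.08) and Bbc3 (-0.12 ± 0.10) were not called.

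Of 15 measured stem-like markers of osteosarcoma 1 rose and 3 fell, or 26.7% called against 16.5% of all genes. Sox2, a pluripotency factor, had 896, 795 and 989 counts in log phase and 1998, 1911 and 2352 under stress, 2.34-fold higher (1.02 ± 0.08, adjusted p = 2.6e-09). Ly6a (Sca-1) fell 6.95-fold from 3712, 4617 and 2919 to 522, 551 and 544 counts (-2.30 ± 0.14, adjusted p = 5.1e-11), the hyaluronan receptor Cd44 3.19-fold (-1.61 ± 0.08, adjusted p = 4.1e-12) and Itga6 1.72-fold (-0.70, not called with library-median centring). Of the 4 measured genes that the study names from its culture sequencing, Sox2 rose, Hsd17b4, a peroxisomal enzyme of fatty acid oxidation, fell 2.13-fold from 1229.7, 1296 and 1201 to 589, 580.1 and 583 counts (-0.84 ± 0.05, adjusted p = 9.1e-11), and S1pr2, a receptor for sphingosine-1-phosphate, fell 1.93-fold from 2238, 2110.4 and 1971 to 1083, 1071 and 1126 (-0.80 ± 0.05, adjusted p = 1.3e-10). That list was chosen by the study on these samples and is not independent evidence of a direction.

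Genes of the mitochondrial genome fell in part, 5 of 11, with a median of -0.57. mt-Cytb, cytochrome b, had 72538, 82821 and 65442 counts in log phase and 25297, 30703 and 29172 under stress, 2.59-fold lower (-1.36 ± 0.09, adjusted p = 1.1e-10), and mt-Nd6 fell 2.15-fold (-1.07 ± 0.09, adjusted p = 3.2e-09), mt-Nd5 1.86-fold and mt-Atp8 1.67-fold, the last not called with library-median centring. The ribosomal RNAs mt-Rnr1 (0.10 ± 0.10) and mt-Rnr2 (0.39 ± 0.11) were not called. Nuclear-encoded respiratory chain subunits fell in 7 of 42 cases, or 16.7% against 16.5% of all genes called, and rose in none. With library-median centring 4 fell and with limma voom on the recovered reads 11. The differences were below 0 in 41 of the 42, with a median of -0.35. Ndufa4 went from 6395, 5694 and 4866 to 2545, 2348 and 2149 counts (2.41-fold lower, -1.17 ± 0.09, adjusted p = 6.2e-10), and Cox6a1 (2.08-fold), Atp5j (2.03-fold) and Ndufa5 (2.1-fold) also fell. None of 44 cytosolic ribosomal proteins and elongation factors was DE with limma, against 16.5% of all genes. Their differences ran from -0.36 to 0.58 with a median of 0.26. The count at an unadjusted p below 0.05 was 28, limma voom on the recovered reads also called none, and with library-median centring 10 were DE, all higher. Of 34 genes of MYC and ribosome biogenesis 4 fell and only Hspd1 rose, or 14.7% called against 16.5% of all genes. Among those that fell were Nop58 (1.66-fold), Odc1 (1.61-fold) and Dkc1 (1.67-fold). These calls were lost with library-median centring and, for Odc1 (-0.58) and Dkc1 (-0.55), without log phase replicate 3.

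Vwf, von Willebrand factor, is a marker of endothelium and was among the 10 largest rises. It had 43.2, 54.6 and 62.0 counts in log phase and 1313, 1419.5 and 1374 under stress, 25.7-fold higher (2.63 ± 0.09, adjusted p = 4.9e-14). Esam, another endothelial adhesion molecule, rose 5.03-fold from 18.9, 16.9 and 20.3 to 87.3, 112 and 82.7 counts (0.61 ± 0.06, adjusted p = 7.6e-08), a call lost without stress replicate 2 (0.56). Of the 10 endothelial markers 4 had a value, Pecam1 (0.10 ± 0.06) and Egfl7 (-0.32 ± 0.07) were not called, and Cdh5, Kdr, Tie1, Tek, Emcn and Cldn5 had none. The list summed to 628 to 666 normalized counts in log phase and 1927 to 2041 under stress, where most of it was Vwf. Csn3, kappa-casein, a milk protein, also rose 10.2-fold from 883, 626 and 889.9 to 9077, 8237 and 7236 counts (2.99 ± 0.16, adjusted p = 9.6e-12).

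The same contrast was then set beside that in scrMo and NT cultures, to ask where the effect of stress differed with the morpholino. Nutritional stress changed 1766 genes under scrMo (10.7%), 726 higher (4.38%) and 1040 lower (6.28%), and 3000 under NT (18.1%), 1361 higher (8.22%) and 1639 lower (9.9%). With library-median centring the share higher went from 41.1% to 52.8% under scrMo and from 45.4% to 66.7% under NT. Of the 2726 genes DE under DkkMo 1388 were DE in the same direction under scrMo (50.9% of the DkkMo genes and 78.6% of the scrMo genes) and 1852 under NT (67.9% and 61.7%), and 992 (5.99% of those tested) in all 3. Opposite directions were found for 7 and 2 genes. The 3 contrasts share no library, and their differences were tested directly as interactions. The effect of stress differed between DkkMo and scrMo in 613 genes (3.7%), with 144 more positive under DkkMo (0.869%) and 469 more negative (2.83%), and between DkkMo and NT in 649 genes (3.92%), with 254 more positive (1.53%) and 395 more negative (2.38%). With library-median centring the share more positive in the first of these went from 23.5% to 46.9%. In the second it went from 39.1% to 53.6% with quantile normalization and to 62.3% with limma voom on the recovered reads, so the balance of those calls turned.

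**Figure D4:**
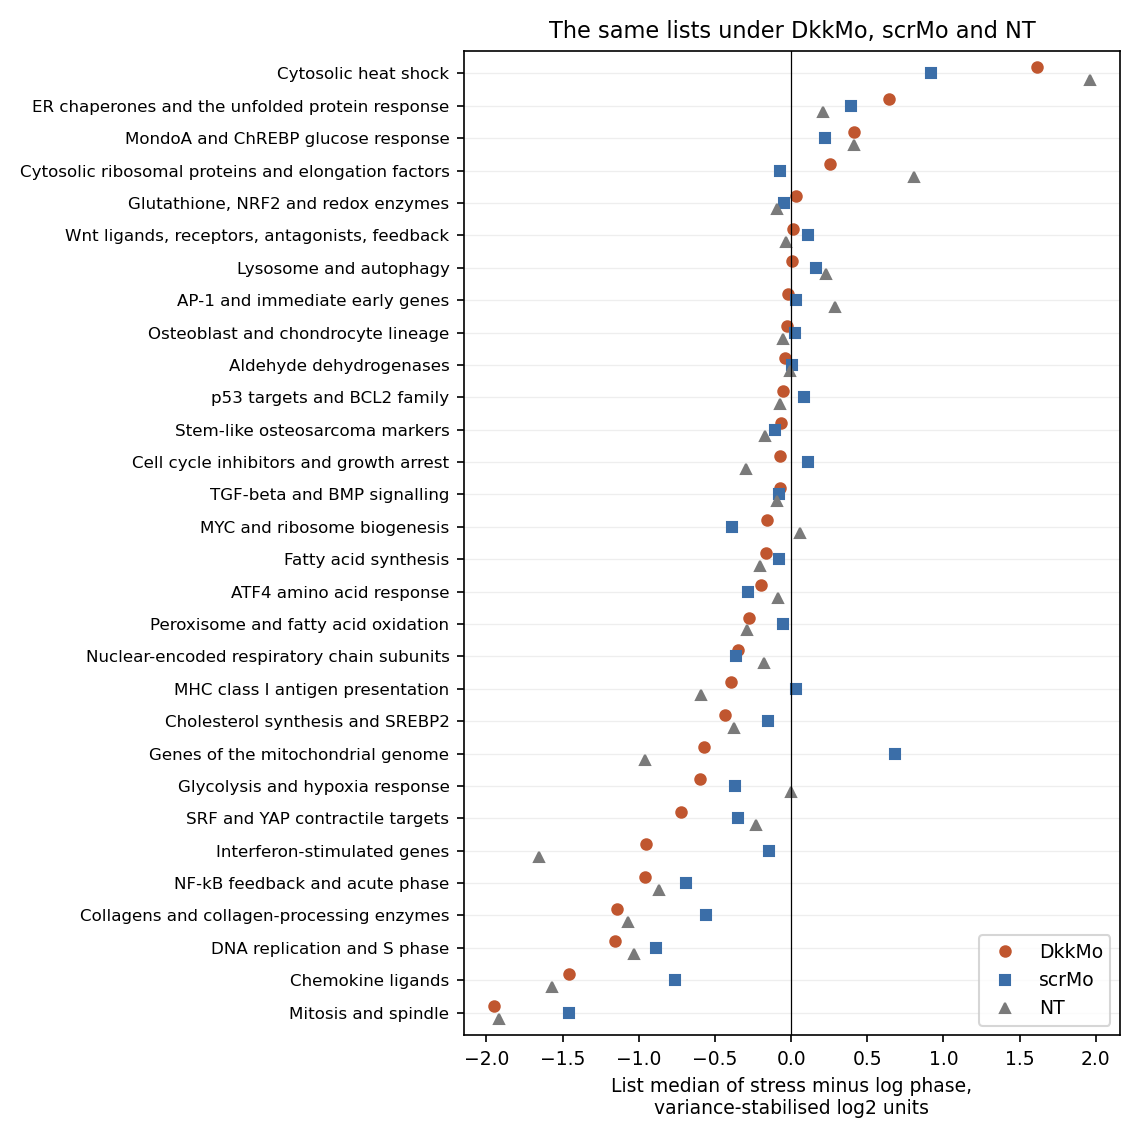
Median difference between nutritional stress and log phase (log2 units) of each gene list under DkkMo (circles), scrMo (squares) and NT (triangles), in the order of the DkkMo medians. The lists of mitosis (-1.95, -1.46 and -1.92) lie on the same side of 0 in all 3, and the genes of the mitochondrial genome (-0.57, 0.68 and -0.96) do not.

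Mitosis genes had negative medians in each treatment. The mitosis medians were -1.95 under DkkMo, -1.46 under scrMo and -1.92 under NT, and 11 of the 28 genes had a more negative effect under DkkMo than under scrMo by the interaction, while none passed it against NT. Heat shock genes had medians of 1.62 under DkkMo, 0.92 under scrMo and 1.96 under NT. Of the 19, 13 had a more positive effect under DkkMo than under scrMo and none passed the test between DkkMo and NT. Over all genes 2.83% were more negative and 0.869% more positive under DkkMo than under scrMo. Hspa1b rose from 4438 ± 1560.2 (SD, n = 3) to 41471 ± 10665 counts under scrMo and from 1982 ± 923 to 54470.4 ± 8311 under NT. The scrMo cultures were higher in log phase and lower under stress than the DkkMo cultures (1922 ± 193 and 74081 ± 9796). Cryab, a small heat shock protein, rose under DkkMo (1.47) and NT (1.93) and stood at -0.15 under scrMo.

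The effect of stress was more negative under DkkMo than under scrMo for 16 of 35 collagen genes and 29 of 42 interferon-stimulated genes. Over all genes the share was 2.83%. Collagen genes had medians of -1.14 under DkkMo, -0.56 under scrMo and -1.07 under NT. Against NT 2 had a more negative and 3 a more positive effect. In log phase the collagen genes summed to 354677 to 442764 counts under DkkMo, 244012 to 294305 under scrMo and 409279 to 444530 under NT. Under stress they summed to 219630 to 235998, 248024 to 261297 and 229167 to 240133. Interferon-stimulated genes had medians of -0.95 under DkkMo, -0.14 under scrMo and -1.66 under NT, and 23 of the 42 had a more positive effect under DkkMo than under NT. Over all genes 2.38% were more negative and 1.53% more positive than under NT. Oas2, an antiviral sensor, had 2738 ± 1036 counts in log phase under DkkMo, 1762 ± 369 under scrMo and 6630.0 ± 557 under NT, and 942 ± 86.4, 1178 ± 73.2 and 627 ± 92.8 under stress. Ifi44 followed the same order, with 1560.2 ± 114 counts in log phase and 44.4 ± 4.34 under stress in NT cultures against 663 ± 148 and 116 ± 12.3 under DkkMo. Gbp9, a guanylate-binding protein, rose under DkkMo (0.69) and scrMo (1.22) and fell under NT (-1.21), while Rsad2 and Gvin1, an interferon-induced GTPase, rose under DkkMo (1.13 and 1.21) and scrMo (1.29 and 1.16) and were not called under NT (-0.30 and -0.13).

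**Figure D5:**
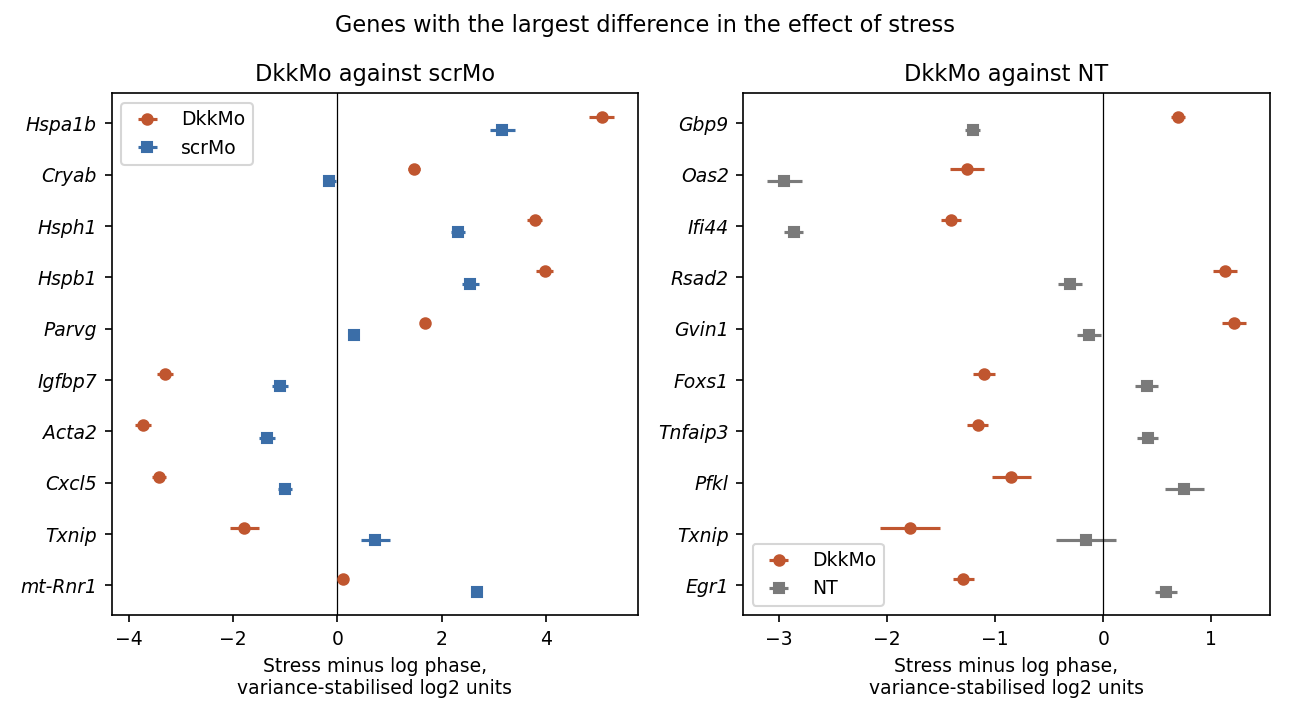
Effect of nutritional stress (log2 units, error bars SE, n = 3 libraries in each group) for the genes with the 5 largest positive and 5 largest negative differences between DkkMo and scrMo (left) or NT (right). Txnip was -1.79 under DkkMo, 0.73 under scrMo and -0.16 under NT.

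Txnip was among the 5 most negative differences against scrMo and also against NT. Under scrMo it rose, from 189 ± 79.2 to 445 ± 85.5 counts (0.73), under NT it went from 641 ± 612 to 433 ± 35.3 and was not called (-0.16), and under DkkMo it fell from 2656 ± 474 to 579 ± 59.8 (-1.79). The interaction was -2.51 against scrMo (adjusted p = 1.8e-04) and -1.62 against NT (adjusted p = 0.0049). Under stress the 3 means lay between 433 and 579 counts, and in log phase between 189 and 2656. Acta2 (-3.72 under DkkMo, -1.36 under scrMo, -2.55 under NT), Igfbp7 (-3.31, -1.10 and -2.53) and Cxcl5 (-3.42, -1.01 and -2.63) fell in all 3 and furthest under DkkMo, and each of these also began highest in log phase under DkkMo. For Acta2 the log phase means were 3416 ± 459.6 under DkkMo, 444 ± 212 under scrMo and 996 ± 251 under NT. Parvg, a parvin of focal adhesions, rose under DkkMo (1.67) and NT (1.53) and was not called under scrMo (0.32).

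Glycolysis separated DkkMo from NT. Of the 32 genes 20 had a more negative effect of stress under DkkMo than under NT, with medians of -0.60 and 0.00, and -0.37 under scrMo, where 1 gene differed. In log phase the list summed to 349192 to 368311 normalized counts under DkkMo, 207478 to 363679 under scrMo and 222500 to 280668 under NT. The scrMo libraries in log phase thus spread widely. Pfkl, the liver form of phosphofructokinase, went from 5906 ± 252 to 3157 ± 273 counts under DkkMo (-0.85) and rose from 3169 ± 794 to 5433 ± 178 under NT (0.75). Of 30 immediate early genes 15 were also more negative than under NT. The share over all genes was 2.38%. Egr1 fell under DkkMo (-1.30) and scrMo (-1.11) and was not called under NT (0.58). The NF-kB inhibitor Tnfaip3 (A20) and the forkhead factor Foxs1 followed that pattern, with -1.16 and -1.10 under DkkMo, -0.81 and -1.18 under scrMo and 0.41 and 0.40 under NT. Ribosomal protein genes, none of them DE under DkkMo, rose in 34 of 44 cases under NT, with a median of 0.80, and 18 differed by the interaction.

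Mitochondrial transcripts separated DkkMo from scrMo. The medians were -0.57 under DkkMo, 0.68 under scrMo and -0.96 under NT, and 10 of 11 genes had a more negative effect under DkkMo than under scrMo. The 3 scrMo libraries under stress stood apart from all others in this measure, with 5.30 to 5.80% of reads on mitochondrial genes. mt-Rnr1, the small ribosomal RNA, rose from 34846 ± 5952 to 221889 ± 20292 counts under scrMo (2.67) and was not called under DkkMo (0.10) or NT (0.01). Libraries were selected for poly(A), and the part of that selection in these values was not tested. The ER chaperones rose in 13 of 21 cases under DkkMo, in 6 under scrMo and in 3 under NT. By the interaction 6 had a more positive effect under DkkMo than under NT and none passed the test against scrMo. Over all genes 1.53% were more positive than under NT, and 2.83% more negative than under scrMo.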

How the data were processed

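Per the labels, poly(A) RNA of 34 samples was sequenced, of which the 18 culture libraries were used and the 16 tumour samples were not used here. The submitters' processing notes name HISAT2 2.1.0, SAMtools 1.9, StringTie, featureCounts, Subread 2.0.0 and DESeq2, with GRCm38. Strandedness is not given in the sources used here, so reads of overlapping genes were not told apart. The deposited values are log2 values made by the authors with the variance-stabilising transformation of DESeq2. It was reversed to whole reads, giving reads per library (25.9 M to 44.8 M) and normalized counts, reads divided by the size factor. Size factors were chosen to make low values whole. All genes with fewer reads than a set limit were then within 0.05 of whole (100%), and genes with more were not checked. Of 16576 listed genes, the last 14 were left out by their position, Aldoa and Junb among them. Each had a range of 7.31 or more within a group, against at most 1.96 in the genes tested. limma 3.58.1 (R 4.3.3) fitted 1 mean per group with a variance trend, and Benjamini-Hochberg adjustment ran over all 16562 genes. The code was tested on simulated data. No library pair of a group agreed within sampling noise (chi-square per degree of freedom 3.03 to 34.8). Named were the 10 largest rises and falls, without overlap between groups, up to 4 DE genes per list by size and 5 per interaction each way, plus genes singled out after their values were seen (those given as not called, and Hspe1 and Isg15). Some genes that this rule names are not reported here. Members and lists were chosen with earlier results of these data known. Alternatives changed the scaling, filter, scale, threshold, count model, libraries and replicate block.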

Additional observations from a re-analysis of the deposited data

Results flagged for a closer look

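For 38 values among the named genes the effect of nutritional stress differed between treatments by the interaction test (limma, adjusted p below 0.05 and over 1.5-fold). The values are the effect under DkkMo minus that under the other treatment, in log2 units. Against scrMo the effect was more negative for mt-Rnr1 (-2.57), Txnip (-2.51), Cxcl5 (-2.41), Acta2 (-2.37), Igfbp7 (-2.20), Cbr2 (-2.17), C3 (-1.62), Cxcl1 (-1.09), Top2a (-0.95), Ccl2 (-0.83), S100a4 (-0.71) and Mki67 (-0.66). It was more positive for Dnaja1 (0.76), Dnaja4 (0.87), Csn3 (0.92), Bag3 (1.01), Dnajb1 (1.07), Atf3 (1.28), Parvg (1.36), Hspb1 (1.43), Hsph1 (1.47), Cryab (1.63) and Hspa1b (1.91). Against NT it was more negative for Egr1 (-1.88), Txnip (-1.62), Pfkl (-1.60), Tnfaip3 (-1.57), Foxs1 (-1.51), Acta2 (-1.17), Cxcl1 (-1.05), Cxcl5 (-0.79), Igfbp7 (-0.78) and Cbr2 (-0.77), and more positive for Gvin1 (1.34), Rsad2 (1.43), Ifi44 (1.45), Oas2 (1.69) and Gbp9 (1.9). Leaving out 1 library at a time moved the number of genes that differed from scrMo between 463, without log phase DkkMo replicate 2, and 736, without log phase scrMo replicate 1.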

How the results depend on the processing

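Counts moved with the threshold and the scale. DE genes under DkkMo, scrMo and NT and interactions against scrMo and NT numbered 5854, 4477, 6251, 1553 and 2215 with log2 taken after adding 1 to each normalized count, 5520, 4112, 5856, 1606 and 2207 with 10 added, and 5861, 4486, 6318, 1501 and 2187 with limma voom on the recovered reads. All 2726 DkkMo genes were among the first of these and 2725 among the last. With a 2-fold threshold they numbered 848, 473, 987, 124 and 80, and by adjusted p alone 10861, 9744, 10864, 3673 and 4819. Among genes above the median level 1984 remained for NT and 394 for the interaction with scrMo. Leaving out 1 library at a time gave 2646 to 2927, 1562 to 1948, 2959 to 3117, 463 to 736 and 566 to 769. Whether replicate numbers pair the samples is uncertain, since the deviations within a group of 3 libraries are not independent. Correlations of deviations between like numbers were 0.3497, 0.0571 and 0.0436 under DkkMo and 0.0597, 0.01 and -0.0502 under scrMo. Log replicate 3 correlated best with stress replicate 2, at 0.3126 under DkkMo and 0.1056 under scrMo. The replicate block gave 2728 under DkkMo, including all 2726, 1766 under scrMo and 616 for their interaction. No paired analysis was possible for NT because 2 of its stress titles share a number. Medians turned sign with library-median centring for growth arrest (0.09355), fatty acid synthesis (0.0020594), aldehyde dehydrogenases (0.12401), p53 (0.1081), ribosome biogenesis (0.0078135), TGF-beta (0.091675), stem-like (0.099078) and osteochondral markers (0.043654), as did Aldh1a1 (0.054035). Those of the osteoblast lineage (0.1374) and of immediate early genes (0.1469) also turned. They turned with quantile normalization for aldehyde dehydrogenases (0.012377), p53 (0.013375) and leukocyte markers (-0.0054865), above the median level for p53 (0.00063887) and muscle markers (-0.25338), and without log phase replicate 3 for redox genes (-0.036831, and up to 0.096041 without log phase replicate 1). The calls of Odc1 (-0.58) and Dkc1 (-0.55) were lost without log phase replicate 3 and that of Esam (0.56) without stress replicate 2. The share more positive among interactions with NT was 39.1%, 25.2% among genes above the median level, 41.4% with library-median centring, 53.6% with quantile normalization, 62.3% with voom or 1 added and 62.8% with 10 added. The causes were not tested.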
